A study of Homo sapiens with 15 samples.

Results

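The 35 genes described here encode aminoacyl tRNA synthetases. They were chosen by name as the nuclear genes for these enzymes and matched to the Ensembl identifiers of the expression table, with older symbols such as AARS for AARS1. All 35 were found among the 47459 gene rows with values. Of these, 19 encode cytosolic enzymes, counting GARS1 and KARS1, which also serve mitochondria, and 16 encode mitochondrial enzymes. RNA was measured in MM.1S, a human multiple myeloma cell line, after 6 h with vehicle (DMSO) or compounds that act on the paralogous coactivators CBP and p300. A-485 inhibits their acetyltransferase domain, GNE-781 binds their bromodomain, and dCBP-1 recruits a ubiquitin ligase to them for degradation. The groups were DMSO, A-485 at 100 nM, GNE-781 at 100 nM, A-485 with GNE-781 at 100 nM each (here called the combination) and dCBP-1 at 100 nM, with 3 libraries in each group and 15 in all. Every group was the same cell line, and a control for ligase recruitment alone was not analysed here. Libraries were made with a QuantSeq kit that reads the 3′ ends of mRNA.

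Aminoacyl tRNA synthetases attach each amino acid to its tRNA, the step that sets which amino acid a codon is read as. Cytosolic and mitochondrial protein synthesis use mostly separate enzymes, both encoded in the nucleus, and several cytosolic enzymes sit in a multi-synthetase complex held together by the scaffold proteins AIMP1, AIMP2 and EEF1E1. Many cytosolic synthetase genes are induced by the transcription factor ATF4 when uncharged tRNA builds up. Plasma cells and myeloma cells secrete large amounts of immunoglobulin and so draw heavily on this supply.

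Libraries held 13.1 to 18.29 M reads, and synthetase genes took 0.291 to 0.355% of them. DMSO replicates 1 and 2 stood apart in mitochondrial reads: mitochondrially encoded transcripts took 23.1% and 19.7% of their reads, against 14.3 to 17.0% in the other 13 libraries. The number of members called in each comparison with DMSO is therefore given with and without these libraries. By read counts over all genes, DMSO replicates 1 and 3 differed most, with a chi-square per degree of freedom of 46.5. It was 26.3 for replicates 2 and 3 and 17.7 for replicates 1 and 2, so replicate 3 was the furthest by this measure. Which DMSO libraries are unusual was not tested. All 10 plasma cell markers examined were detected, with summed values of 68121 to 71521 in DMSO and 26089 to 27719 with dCBP-1. Summed markers of T cells, myeloid cells and fibroblasts reached at most 12.7, 17.5 and 22.6, and CD3D, S100A8, CSF1R and FCGR3A were at 0. Epithelial markers summed to 2.11 to 7.28 in DMSO and 22.3 to 30.8 with dCBP-1, with KRT19 at 0, and the part of these shifts in the results was not tested. In bulk libraries, fewer cells and less RNA per cell cannot be told apart. The labels do not say whether replicates came from separate cultures. Each p-value therefore reflects the spread among these libraries, which may be technical.

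Promoter sequence is shown for 4 members, because 3 of them hold the E-box and fell with dCBP-1, and because IARS1 and AARS1 hold an ATF4-type element. They were picked after their values were seen. RefSeq windows (GRCh38.p14) of 250 bases before the annotated start covered 30 of the 35 members, without AARS2, LARS1, VARS1, VARS2 and YARS1. Each sequence runs 5′ to 3′ on the strand of the gene, and capitals mark the motif. The E-box CACGTG is a palindrome bound by MYC with MAX and by related factors, and TGATGNAA is the core of the element bound by ATF4 with a C/EBP partner. It was searched on both strands, so TTGCATCA below is a match on the opposite strand. The MARS2 window is chr2:197705249-197705368 on the plus strand, the EARS2 window chr16:23557351-23557470, the IARS1 window chr9:92293698-92293893 and the AARS1 window chr16:70289630-70289749, the last 3 on the minus strand.
MARS2: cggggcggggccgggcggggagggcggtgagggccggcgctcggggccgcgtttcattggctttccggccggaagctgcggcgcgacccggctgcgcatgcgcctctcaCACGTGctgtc
EARS2: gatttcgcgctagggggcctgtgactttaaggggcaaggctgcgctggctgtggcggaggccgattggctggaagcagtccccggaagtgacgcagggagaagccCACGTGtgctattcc
IARS1: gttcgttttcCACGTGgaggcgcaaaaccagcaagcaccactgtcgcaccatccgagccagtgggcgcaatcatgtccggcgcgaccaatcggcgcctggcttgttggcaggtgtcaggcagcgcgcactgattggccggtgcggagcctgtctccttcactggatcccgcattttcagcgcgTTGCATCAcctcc
AARS1: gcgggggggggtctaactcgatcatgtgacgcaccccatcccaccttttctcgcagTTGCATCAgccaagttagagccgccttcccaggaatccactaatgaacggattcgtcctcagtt
The MARS2, EARS2 and IARS1 stretches end at −1 from the start, and the AARS1 stretch runs from −243 to −124. The E-box lay at −11 to −6 from the start in MARS2, at −15 to −10 in EARS2 and at −186 to −181 in IARS1. The match to TGATGNAA lay at −13 to −6 in IARS1 and at −187 to −180 in AARS1. EARS2 has a further annotated start upstream. CACGTG was found in 3 of the 30 members with a window, against 7.73% of 27305 genes (6.34% of 35097 windows). TGATGNAA was found in 4 members, AARS1, GARS1, IARS1 and YARS2, against 3.89% of genes (3.15% of windows). The cAMP response element TGACGTCA was in 0 of the 30 members and in 2.03% of genes (1.65% of windows). The 3 members with CACGTG were lower with dCBP-1. So were FARSA and FARSB, whose windows lack it, and VARS1, LARS1 and YARS1, which had no window. Of the 4 members with TGATGNAA, IARS1 was lower with dCBP-1 and 3 did not pass the test. A match is a description of the letters and not a measured site.

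With dCBP-1, 15 of 35 synthetase genes changed against DMSO, 7 higher and 8 lower. The members did not move as a block: MARS2, FARSA, VARS1, EARS2, IARS1 and FARSB fell, while HARS2 and MARS1 rose. Values are the deposited normalized read counts, and differences are log2 fold changes from limma on log2(value + 1), with a call at a Benjamini-Hochberg adjusted p under 0.05 over 16104 genes. All 35 members passed the filter on low values. Over all genes tested, 37.8% were called in this comparison, 19.3% higher and 18.5% lower. The share of members called was thus near the background at this filter. With no filter on low values, 13 members and 17.9% of 29736 genes were called. The members' median log2 fold change was 0.16, beside 0.07 for all genes. Among cytosolic enzymes 3 of 19 rose and 6 fell (median −0.05), and among mitochondrial enzymes 4 of 16 rose and 2 fell (median 0.29). Without DMSO replicates 1 and 2, 10 members were called, 2 higher and 8 lower (cytosolic 1 and 6, mitochondrial 1 and 2), and 9 of the 15 calls remained. In that setting 1255 of all genes tested were higher and 2547 lower (24.0% called), so lower calls outnumbered higher ones among all genes too. In all, 8 calls stayed in every alternative run: FARSA, FARSB, VARS1, IARS1, EARS2 and MARS2 lower, MARS1 and HARS2 higher.

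**Figure D1:**
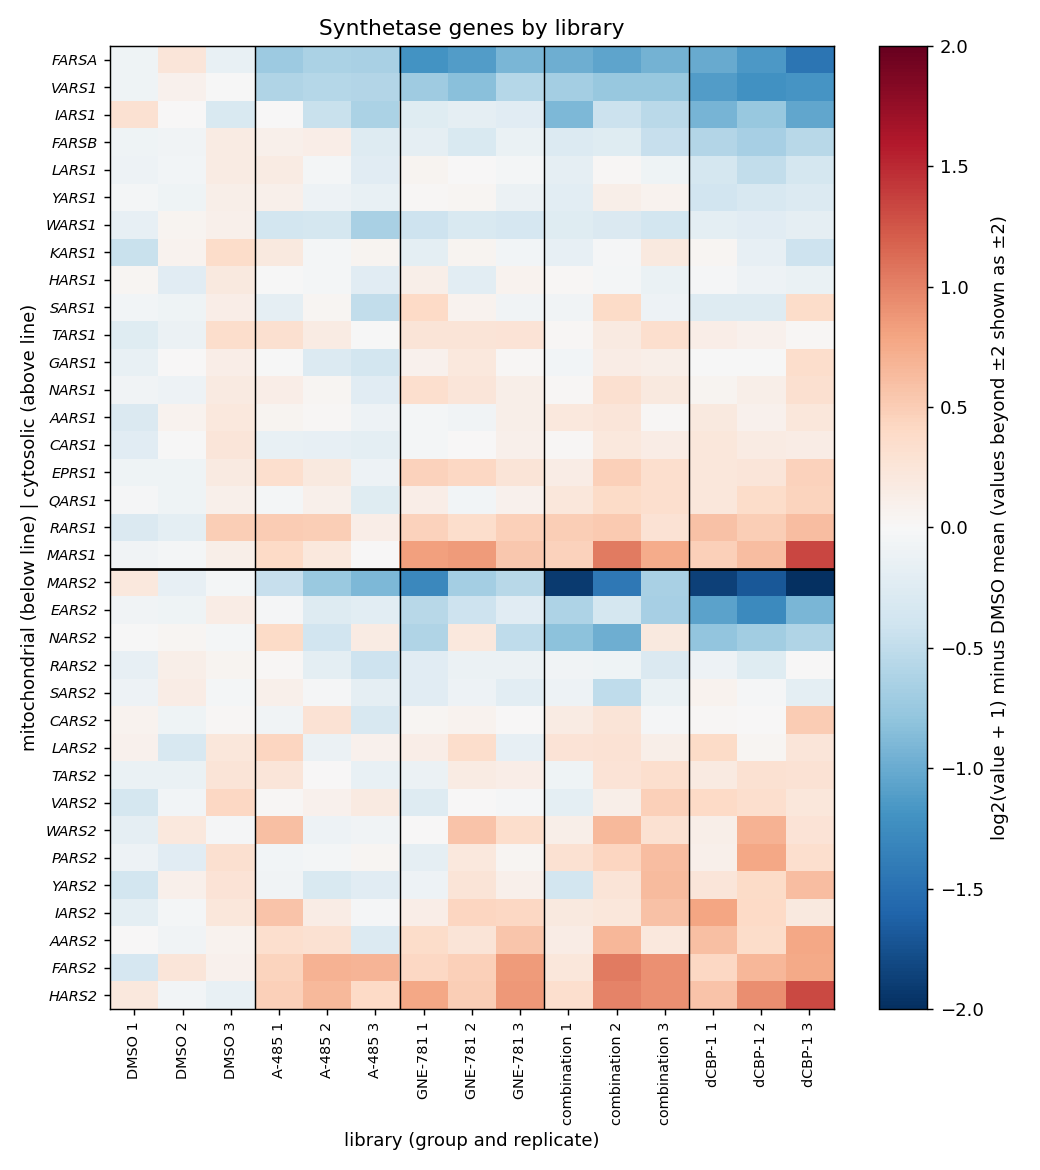
Log2(value + 1) of the 35 synthetase genes in each of 15 libraries, minus the gene's mean over the 3 DMSO libraries; red is higher and blue lower, and the black line separates 19 cytosolic genes (above) from 16 mitochondrial genes (below). FARSA, VARS1 and MARS2 are blue in all 12 treated libraries, and most other genes stay pale.

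The inhibitors alone called fewer members. With A-485, 0 members rose and 2 fell, FARSA and VARS1, where 2.14% of all genes were called (0.348% higher, 1.79% lower). That background depended on the settings: 56 genes were higher and 289 lower, against 164 and 193 with TMM scaling and 145 and 185 with quantile normalization. It was 69 genes in all without DMSO replicate 2, and 676 higher and 456 lower without DMSO replicate 3. At an unadjusted p under 0.05 limma gave 3 members higher and 5 lower with A-485. The share of all genes at that threshold was not counted, so no direction among the members is read from these counts. By adjusted p edgeR called 0 members higher and 2 lower, where 2.26% of all genes were called. DESeq2 called 2 higher and 3 lower, where 5.29% were called. With GNE-781, 2 rose and 3 fell, where 16.6% of genes were called (7.82% higher, 8.81% lower). With the combination, 4 rose and 5 fell, where 21.0% were called (11.4% higher, 9.60% lower). Member medians were −0.02, 0.02 and 0.13 for A-485, GNE-781 and the combination, beside −0.03, 0.07 and 0.09 for all genes. Without DMSO replicates 1 and 2 the counts were 0, 2 and 3, with FARSA and VARS1 among those called for GNE-781 and the combination, and the shares of all genes were 0.082%, 5.61% and 6.82%. These comparisons share the DMSO libraries, so they are not independent of each other. With all 15 libraries, FARSA and VARS1 were the only members called against DMSO in all 4 comparisons (1.83% of all genes). Their A-485 calls ended without DMSO replicate 2 (limma adjusted p = 0.089 and 0.065), so neither was then called in all 4. A further 6 members were called with dCBP-1 alone (16.5% of all genes), and 20 in none (59.3%), again with all libraries. Differences between treatments were tested separately.

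In DMSO the cytosolic genes ran from 646 normalized reads for WARS1 to 6997 for EPRS1, the bifunctional glutamyl and prolyl enzyme, with a median of 2302. The mitochondrial genes ran from 56.2 for PARS2, the prolyl enzyme, to 963 for IARS2, the isoleucyl enzyme, with a median of 179. Reads in this 3′ method do not scale with transcript length, but capture can differ between genes, so the order is only approximate. The classes overlapped: IARS2 at 963 ± 145 and RARS2 at 904 ± 91.8 (SD, n = 3) lay above HARS1 at 811 ± 114 and WARS1 at 646 ± 61.9. IARS2, RARS2 and HARS1 did not differ beyond their spread. FARSA ranked second at 4686 ± 730, within the spread of AARS1 at 4070 ± 689 and TARS1 at 3970 ± 903.

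Cytosolic phenylalanyl tRNA synthetase is a tetramer of the FARSA (alpha) and FARSB (beta) subunits, and both genes fell with dCBP-1. FARSA (ENSG00000179115) was at 4364, 5522 and 4173 in DMSO, 2821, 2985 and 2953 with A-485, and 2024, 2134 and 2469 with GNE-781. It was at 2369, 2245 and 2415 with the combination and 2316, 2093 and 1697 with dCBP-1. Every treated library lay below every DMSO library. The log2 fold change against DMSO was −0.67 ± 0.13 (SE) with A-485 (limma adjusted p = 0.0064), −1.08 with GNE-781 (2.2e-06), −0.99 with the combination (5.7e-06) and −1.20 with dCBP-1 (2.2e-08). Without DMSO replicate 2 the A-485 call ended (−0.55, adjusted p = 0.089 by limma), as it did without DMSO replicates 1 and 2 (−0.52, 0.27).

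FARSB (ENSG00000116120) was at 2705, 2732 and 3203 in DMSO, 3064, 3150 and 2405 with A-485, and 2524, 2325 and 2618 with GNE-781. It was at 2388, 2438 and 2078 with the combination and 1906, 1816 and 1956 with dCBP-1. The dCBP-1 libraries were the lowest of the 15 and did not overlap any other group. Only the dCBP-1 difference from DMSO was called among the 4, at −0.60 ± 0.13 (SE; limma adjusted p = 4e-04). The ratio of FARSA to FARSB within a library, on which library scaling has no effect, had a mean log2 of 0.70 in DMSO, 0.033 with A-485, −0.18 with GNE-781, 0.029 with the combination and 0.093 with dCBP-1. FARSA exceeded FARSB in every DMSO library, and was below it in 2 A-485, 3 GNE-781, 2 combination and 1 dCBP-1 libraries.

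Valyl and isoleucyl enzymes of the cytosol also fell. VARS1 (ENSG00000204394), the valyl enzyme, was at 2258, 2542 and 2390 in DMSO, 1573, 1609 and 1603 with A-485, and 1459, 1340 and 1615 with GNE-781. It was at 1487, 1420 and 1418 with the combination and 1102, 1033 and 1051 with dCBP-1. No treated library reached the DMSO range, and the dCBP-1 libraries lay below all others. Log2 fold changes against DMSO were −0.59 ± 0.12 (SE), −0.71, −0.73 and −1.17 in that order of treatments, with limma adjusted p of 0.0066, 0.00013, 6.2e-05 and 3.4e-09. The A-485 call ended without DMSO replicate 2 (−0.54, 0.065) and without DMSO replicates 1 and 2 (−0.58, 0.17).

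IARS1 (ENSG00000196305), the isoleucyl enzyme and a part of the multi-synthetase complex, was at 1414, 1149 and 929.8 in DMSO, 1153, 842.7 and 738.6 with A-485, and 965.9, 1010 and 976.5 with GNE-781. It was at 616.3, 854.5 and 788.4 with the combination and 598.8, 678.5 and 556.1 with dCBP-1. The dCBP-1 libraries lay below all DMSO libraries and overlapped the lowest combination library. The difference from DMSO was −0.91 ± 0.16 with dCBP-1 (SE; limma adjusted p = 5.5e-05) and −0.62 with the combination (0.0074). The combination call ended without DMSO replicate 1 (−0.47, 0.065), without combination replicate 1 (−0.48, 0.054) and without DMSO replicates 1 and 2 (−0.32, 0.43).

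Smaller falls with dCBP-1 were called for LARS1, the leucyl enzyme, at −0.40 ± 0.13 (SE; limma adjusted p = 0.013), and YARS1, the tyrosyl enzyme, at −0.32 ± 0.13 (0.042). LARS1 had a mean of 2814 ± 296 in DMSO and 2130 ± 121 with dCBP-1 (SD, n = 3), and its call ended without DMSO replicate 3 (−0.31, 0.051) and without dCBP-1 replicate 2 (−0.35, 0.067). YARS1 went from 1672 ± 122 to 1333 ± 48.9, and its call ended in 11 of 18 alternatives, among them each single library left out (−0.37 to −0.27, adjusted p 0.052 to 0.12). In the 3 groups with inhibitors, both genes lay between −0.08 and 0.01 against DMSO on the log2 scale, without a call.

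Cytosolic rises were led by MARS1 (ENSG00000166986), the methionyl enzyme, which serves both initiator and elongator tRNA and is part of the complex. It was at 1065, 1086 and 1208 in DMSO, 1477, 1298 and 1119 with A-485, and 1978, 2018 and 1618 with GNE-781. It was at 1540, 2291 and 1867 with the combination and 1558, 1720 and 2829 with dCBP-1. The GNE-781, combination and dCBP-1 libraries all lay above DMSO, and dCBP-1 replicate 3 was the highest. Log2 fold changes were 0.74 ± 0.17 (SE), 0.75 and 0.81 for these groups, with limma adjusted p of 0.0036, 0.0024 and 0.00039. The first 2 calls ended without DMSO replicates 1 and 2 (0.62, 0.15 and 0.63, 0.13). The 3′ end of MARS1 overlaps an exon of DDIT3 on the opposite strand, and whether the authors counted by strand is not given in the sources used here. DDIT3, a stress-induced transcription factor, was at 172, 260 and 307 in DMSO and 456, 426 and 424 with dCBP-1 (0.86 ± 0.18, limma adjusted p = 3e-04). Without DMSO replicates 1 and 2 the DDIT3 call ended (0.50, 0.078), and its part in the MARS1 values was not tested.

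RARS1 (ENSG00000113643), the arginyl enzyme of the complex, was at 2301, 2450 and 3945 in DMSO, 4018, 3962 and 3090 with A-485, and 3864, 3607 and 3906 with GNE-781. It was at 3964, 4031 and 3421 with the combination and 4242, 3963 and 4291 with dCBP-1. DMSO replicate 3 lay among the treated libraries, far above the other two. The called differences were 0.57 ± 0.15 with dCBP-1 (SE; limma adjusted p = 0.0042) and 0.43 with the combination (0.044). Without DMSO replicates 1 and 2 they were 0.08 (0.79) and −0.056 (0.89), so both rest on these libraries. The combination call also ended without DMSO replicate 1 (0.29, 0.24), DMSO replicate 2 (0.33, 0.21), combination replicate 1 (0.40, 0.11) or combination replicate 2 (0.39, 0.15), with only the groups compared (0.43, 0.10) and with no filter (0.43, 0.11). QARS1, the glutaminyl enzyme, went from 1492 ± 95.1 in DMSO to 1902 ± 150 with dCBP-1 (SD, n = 3; 0.35 ± 0.13, limma adjusted p = 0.028). Its call ended without DMSO replicate 1 or 2, or dCBP-1 replicate 2 or 3 (0.30 to 0.34, adjusted p 0.062 to 0.11), and without both DMSO libraries (0.25, 0.31).

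The other 10 cytosolic genes did not pass the test with dCBP-1. Their intervals bound what could have been missed: AARS1 (alanyl) was at 0.17 (log2, 95% interval −0.10 to 0.44), GARS1 (glycyl) 0.11 (−0.16 to 0.38), TARS1 (threonyl) 0.08 (−0.20 to 0.37) and SARS1 (seryl) −0.05 (−0.39 to 0.30). EPRS1 was at 0.31 (0.03 to 0.59; limma adjusted p = 0.077). CARS1 (cysteinyl) was at 0.18, NARS1 (asparaginyl) at 0.16, HARS1 (histidyl) at −0.08, KARS1 (lysyl) at −0.18 and WARS1 (tryptophanyl) at −0.20. The 3′ ends of HARS1 and WARS1 overlap exons of WDR55 and AL157871.4 on the opposite strand. WDR55 was called higher with dCBP-1 (0.60, limma adjusted p = 0.019), and its part in the HARS1 values was not tested.

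**Figure D2:**
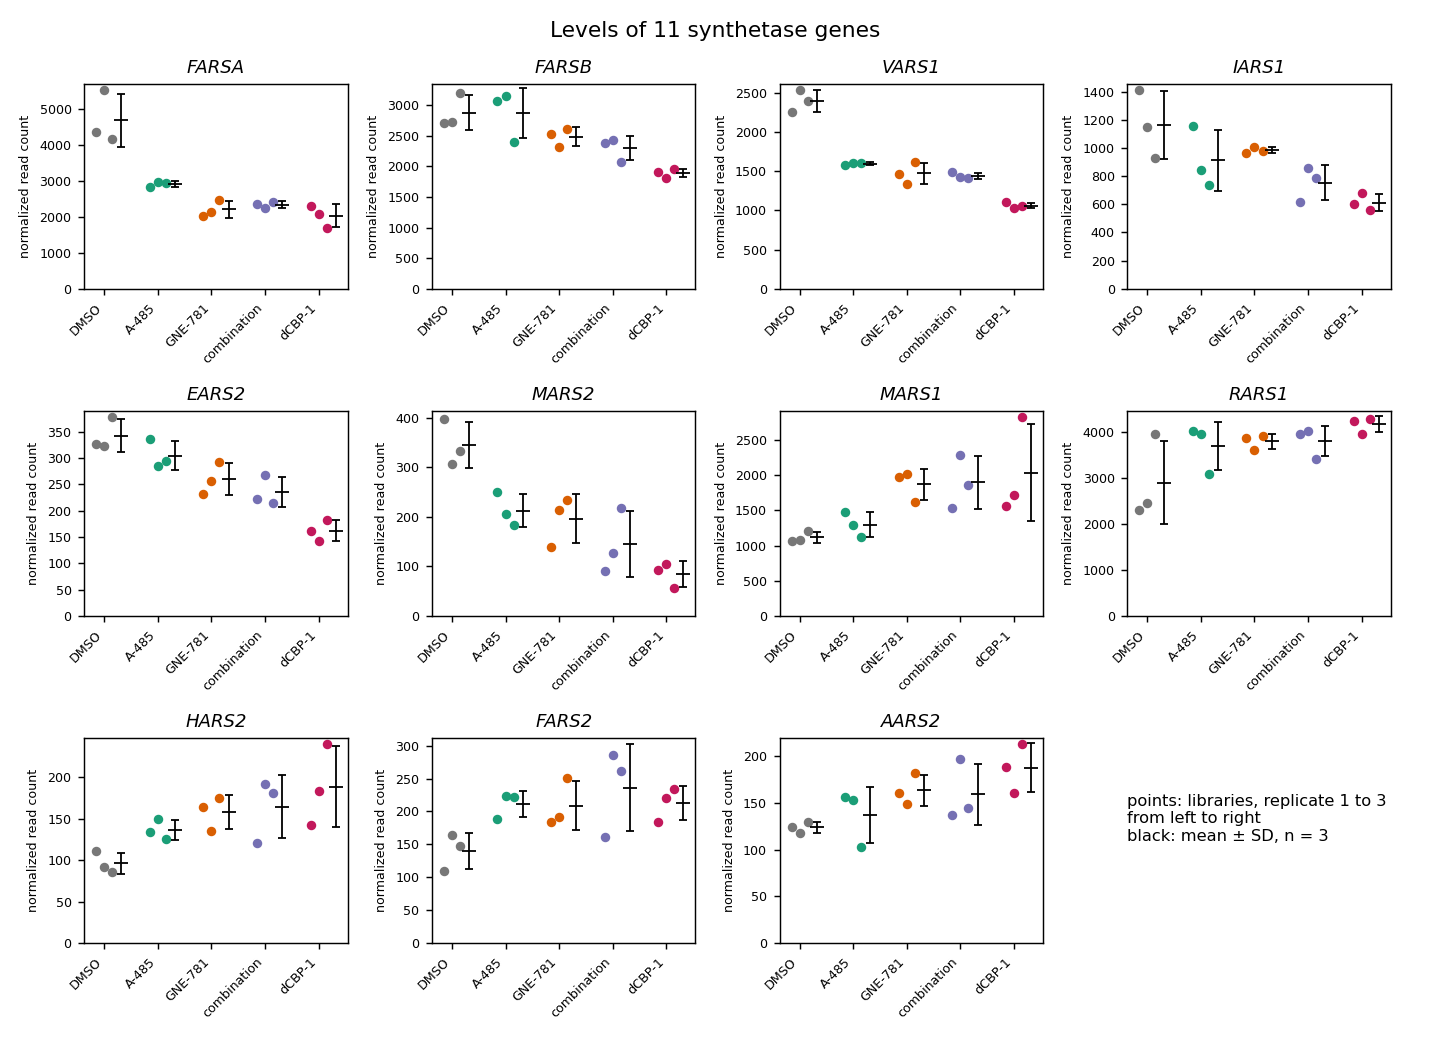
Normalized read counts of 11 synthetase genes in the 5 groups; coloured points are libraries (replicate 1 to 3 from left to right) and black marks are mean ± SD, n = 3, with each axis starting at 0. FARSA drops from 4173 to 5522 in DMSO to 1697 to 2316 with dCBP-1, and RARS1 shows DMSO replicate 3 at 3945 among the treated libraries.

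Of the mitochondrial enzymes, the methionyl and glutamyl ones fell. MARS2 (ENSG00000247626), which charges the mitochondrial methionyl tRNA, was at 396.9, 305.8 and 332.6 in DMSO, 249.7, 205.6 and 182.7 with A-485, and 140, 214.1 and 234.4 with GNE-781. It was at 89.98, 126.8 and 218.4 with the combination and 93.12, 105 and 55.73 with dCBP-1. All treated libraries lay below DMSO. The difference was −2.06 ± 0.26 with dCBP-1 (SE; limma adjusted p = 2.7e-07), from a mean of 345 ± 46.8 to 84.6 ± 25.7 (SD, n = 3). It was −1.33 with the combination (0.00052), −0.84 with GNE-781 (0.027) and −0.70 with A-485, which was not called. The GNE-781 call ended without DMSO replicate 1 (−0.73, 0.099), without GNE-781 replicate 1 (−0.61, 0.18) and without DMSO replicates 1 and 2 (−0.79, 0.25). Of all 35 members MARS2 had the largest fold change with dCBP-1.

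EARS2 (ENSG00000103356), the mitochondrial glutamyl enzyme, was at 326.7, 322.7 and 377.5 in DMSO, 335, 284.6 and 293.4 with A-485, and 231.1, 255.8 and 292.6 with GNE-781. It was at 222.2, 267.1 and 214 with the combination and 162, 141.4 and 181.4 with dCBP-1. The dCBP-1 libraries lay below all 12 others. The difference from DMSO was −1.08 ± 0.17 with dCBP-1 (SE; limma adjusted p = 7.6e-06) and −0.55 with the combination (0.020). The combination call ended without DMSO replicate 3 (−0.48, 0.053), combination replicate 1 (−0.51, 0.058), combination replicate 3 (−0.49, 0.075) or DMSO replicates 1 and 2 (−0.69, 0.071). NARS2, the asparaginyl enzyme, went from 92.3 ± 2.55 to 56.7 ± 3.70 with dCBP-1 (SD, n = 3), and its −0.70 was not called (limma adjusted p = 0.060).

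Mitochondrial rises were found for HARS2, FARS2, AARS2 and IARS2. HARS2 (ENSG00000112855), the histidyl enzyme, was at 110.5, 91.75 and 86.18 in DMSO, 133.6, 149.6 and 125.7 with A-485, and 163.9, 135.6 and 174.4 with GNE-781. It was at 121, 191.3 and 181.3 with the combination and 142.5, 183.4 and 239.5 with dCBP-1. Every treated library lay above DMSO. Log2 fold changes were 0.71 ± 0.22 (SE) with GNE-781, 0.75 with the combination and 0.94 with dCBP-1, with limma adjusted p of 0.025, 0.015 and 0.0011. The GNE-781 call ended without DMSO replicate 2 or 3, or GNE-781 replicate 1 or 3 (0.64 to 0.68, adjusted p 0.053 to 0.097), and without DMSO replicates 1 and 2 (0.86, 0.091). The combination call ended without combination replicate 2 (0.63, 0.096), combination replicate 3 (0.67, 0.059) or both DMSO libraries (0.90, 0.069). HARS1 and HARS2 lie head to head with starts 85 bases apart, yet HARS1 was at −0.08 with dCBP-1. The 3′ end of HARS2 overlaps an exon of ZMAT2 on the same strand. ZMAT2 was at 3270, 3093 and 7075 in DMSO and 6803 to 7441 with dCBP-1, so DMSO replicate 3 lay within the dCBP-1 range. It was called higher with GNE-781 (0.69, limma adjusted p = 0.010), the combination (0.77, 0.0033) and dCBP-1 (0.76, 0.0016), as HARS2 was. The part of ZMAT2 in the HARS2 values was not tested.

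FARS2 (ENSG00000145982), the single-chain phenylalanyl enzyme of mitochondria, was at 109.6, 163.5 and 146.9 in DMSO, 188.1, 223.1 and 221.4 with A-485, and 184.2, 191.5 and 251.1 with GNE-781. It was at 161.6, 285.2 and 262.1 with the combination and 184.4, 220.5 and 234.8 with dCBP-1. Only combination replicate 1 fell within the DMSO range. The called differences were 0.73 ± 0.21 with the combination (SE; limma adjusted p = 0.013) and 0.62 with dCBP-1 (0.021). The dCBP-1 call ended without DMSO replicate 1 (0.45, 0.12), dCBP-1 replicate 2 (0.59, 0.061), dCBP-1 replicate 3 (0.54, 0.078) or DMSO replicates 1 and 2 (0.53, 0.18). The combination call ended without DMSO replicate 1 (0.56, 0.082), combination replicate 2 (0.57, 0.11), combination replicate 3 (0.63, 0.058) or both DMSO libraries (0.64, 0.18).

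AARS2 (ENSG00000124608), the alanyl enzyme, was at 124, 118.1 and 129.9 in DMSO, 156.2, 153.3 and 102.8 with A-485, and 160.2, 148.7 and 181.8 with GNE-781. It was at 137, 196.9 and 144.1 with the combination and 189, 160.7 and 213.4 with dCBP-1, where all 3 libraries lay above DMSO (0.59 ± 0.21, SE; limma adjusted p = 0.026). Its call ended without DMSO replicate 2, dCBP-1 replicate 1 or dCBP-1 replicate 3 (0.49 to 0.58, adjusted p 0.063 to 0.11) or without both DMSO libraries (0.52, 0.20). IARS2, the isoleucyl enzyme, went from 963 ± 145 to 1333 ± 283 (SD, n = 3; 0.46 ± 0.16, limma adjusted p = 0.028). Its call ended without DMSO replicate 1 or 2, or dCBP-1 replicate 1 (0.30 to 0.44, adjusted p 0.075 to 0.21), and without both DMSO libraries (0.23, 0.50). The other 9 mitochondrial genes besides NARS2 did not pass the test, from −0.12 for RARS2 to 0.41 for YARS2. Of these, the 3′ end of SARS2 overlaps an exon of AC011455.2 on the same strand.

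**Figure D3:**
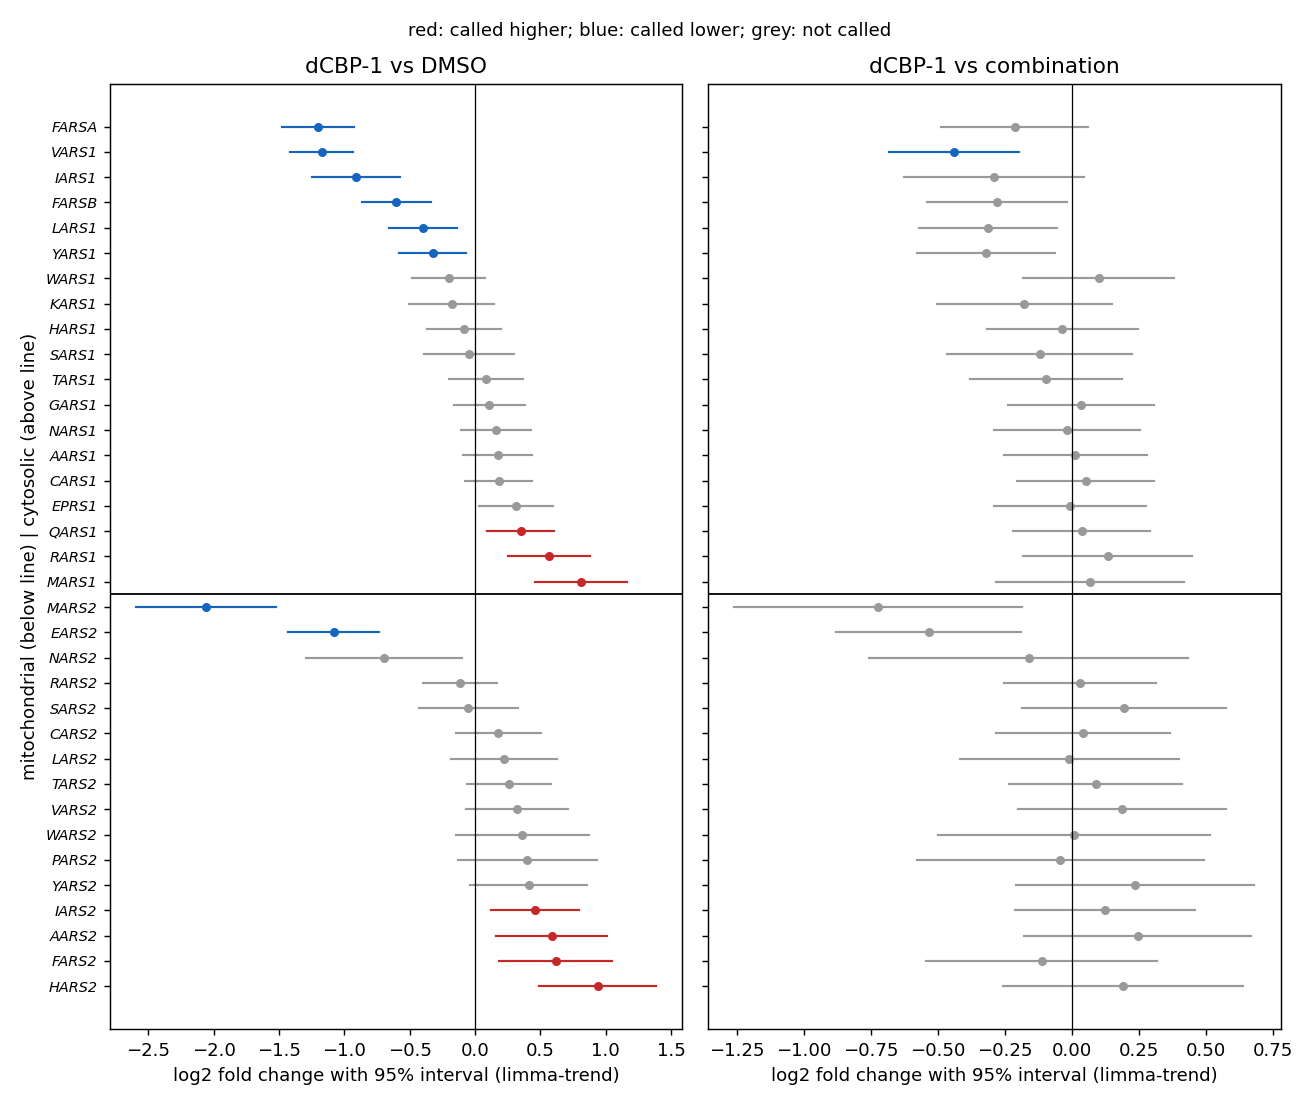
Log2 fold change of each synthetase gene with its 95% interval from limma-trend, for dCBP-1 against DMSO (left) and dCBP-1 against the combination (right); cytosolic genes are above the line and mitochondrial genes below. On the left 7 genes are called higher (red) and 8 lower (blue), and on the right VARS1 alone is called, at −0.44.

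Where a cytosolic and a mitochondrial enzyme charge the same amino acid, their levels could be set against each other within a library, which cancels library scaling. The widest shift was for methionine: MARS1 to MARS2 was 2.68, 3.55 and 3.63 in DMSO and 16.7, 16.4 and 50.8 with dCBP-1, a mean log2 ratio of 1.70 against 4.59. With A-485, GNE-781 and the combination that mean was 2.61, 3.28 and 3.79. For isoleucine the mean log2 ratio of IARS1 to IARS2 changed sign in every treatment. It was 0.26 in DMSO, −0.33 with A-485, −0.28 with GNE-781, −0.69 with the combination and −1.11 with dCBP-1. IARS2 had more reads than IARS1 in all 12 treated libraries. Capture can differ between genes, so this does not show which transcript was the more abundant. DMSO replicate 3 already had IARS1 below IARS2, at a ratio of 0.830. From DMSO to dCBP-1, FARSA to FARS2 went from 5.07 to 3.25, VARS1 to VARS2 from 3.28 to 1.79, and HARS1 to HARS2 from 3.07 to 2.04, and the inhibitor groups lay between (3.35 to 3.80, 2.42 to 2.67 and 2.27 to 2.48). Pairs that moved little were SARS1 to SARS2, at 3.05 in both groups, and CARS1 to CARS2, at 2.08 in both. The other pairs lay between: NARS1 to NARS2 shifted by 0.87 from DMSO to dCBP-1, and RARS1 to RARS2 by 0.68. YARS1 to YARS2 shifted by −0.74, LARS1 to LARS2 by −0.62 and WARS1 to WARS2 by −0.57. AARS1 to AARS2 shifted by −0.42 and TARS1 to TARS2 by −0.18. How often such ratios shift among other gene pairs was not counted. No test is given for these ratios, since their genes were already tested.

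**Figure D4:**
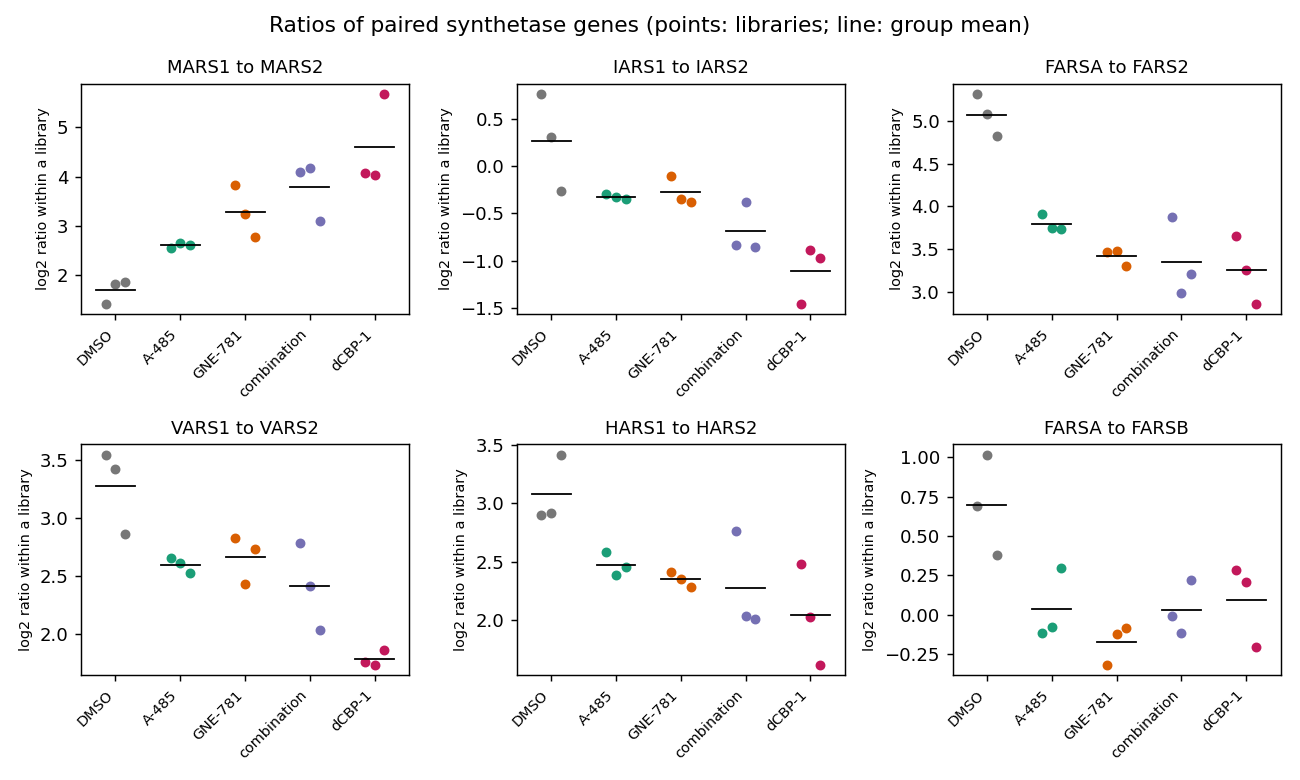
Log2 ratio of 2 synthetase genes within each library for 6 pairs; points are libraries by group and black lines are group means. MARS1 to MARS2 climbs from a mean of 1.70 in DMSO to 4.59 with dCBP-1, and IARS1 to IARS2 goes from 0.26 to −1.11.

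Treatments were also compared directly at the matched dose and time. Against the combination, dCBP-1 called 0 members higher and 1 lower, where 6.17% of all genes were called (0.553% higher, 5.61% lower). The genes called were 89 higher and 904 lower, against 337 and 1024 with TMM, 329 and 1043 with median-ratio scaling and 499 and 987 with quantile normalization. By limma at an unadjusted p under 0.05 there were 0 higher and 6 lower, a threshold at which all genes were not counted. These counts thus have no background, and no direction is read from them. By adjusted p edgeR and DESeq2 called 0 members higher with 2 and 4 lower, where they called 8.63% and 10.9% of all genes. The 1 member called by limma at an adjusted p was VARS1, at −0.44 ± 0.12 (SE, limma adjusted p = 0.018). It was at 1062 ± 35.6 with dCBP-1 and 1442 ± 38.8 with the combination (SD, n = 3). That call ended without combination replicate 1, 2 or 3, or dCBP-1 replicate 2 or 3 (−0.45 to −0.42, adjusted p 0.053 to 0.091). MARS2 was at −0.72 with a 95% interval of −1.26 to −0.19, and EARS2 at −0.53 (−0.88 to −0.19, limma adjusted p = 0.057), neither called. FARSA was at −0.21 (−0.49 to 0.06) and MARS1 at 0.07 (−0.29 to 0.42). The member median was −0.01, beside −0.03 for all genes.

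Against GNE-781 alone, dCBP-1 called 0 members higher and 6 lower, where 9.31% of genes were called (2.19% higher, 7.13% lower). By limma at an unadjusted p under 0.05 there were 2 higher and 7 lower, a threshold at which all genes were not counted. These counts thus have no background, and no direction is read from them. By adjusted p edgeR and DESeq2 each called 1 member higher and 7 lower, where they called 13.4% and 16.1% of all genes. The 6 were MARS2 at −1.22 ± 0.26 (SE; limma adjusted p = 0.0017), IARS1 at −0.69 (0.0048), EARS2 at −0.68 (0.0070), VARS1 at −0.47 (0.0086), LARS1 at −0.41 (0.035) and FARSB at −0.39 (0.049). MARS2 and IARS1 were called in every alternative run. EARS2 was lost without GNE-781 replicate 3 (−0.59, 0.063) or dCBP-1 replicate 2 (−0.59, 0.060), and VARS1 without GNE-781 replicate 3 (−0.40, 0.075). LARS1 (−0.44 to −0.36, adjusted p 0.058 to 0.16) and FARSB (−0.44 to −0.36, 0.074 to 0.18) were lost without any 1 of the 6 libraries. The member median was 0.04, beside −0.01 for all genes.

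Non-additivity, the log2 difference between the effect of both inhibitors together and the sum of their single effects, was called for 0 of 35 members by limma, edgeR and DESeq2, where 0.447% of genes were called by limma (0.435% higher, 0.0124% lower). These 72 genes became 1 with TMM, median-ratio or quantile scaling, 9 without DMSO replicate 2, and 211 (133 higher, 78 lower) without DMSO replicate 3. Of all genes, edgeR called 0.0248% and DESeq2 0.664%. At an unadjusted p under 0.05 by limma, 3 members were higher and 0 lower, and all genes were not counted at that threshold. These counts thus have no background, and no direction is read from them. FARSA had 0.76 and VARS1 0.56, each fall with both inhibitors being smaller than the sum of the single falls. Without DMSO replicate 3 FARSA was called, at 0.84 (limma adjusted p = 0.018).

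By known roles the members divided as follows, beside 37.8% of all genes called with dCBP-1 (24.0% without DMSO replicates 1 and 2). Of 13 cytosolic enzymes known to be induced through ATF4 in amino acid stress, 1 rose with dCBP-1 (MARS1) and 4 fell (VARS1, IARS1, LARS1, YARS1), with a median of 0.08. Of the 6 other cytosolic enzymes, RARS1 and QARS1 rose and FARSA and FARSB fell, with a median of −0.13. Of 7 enzymes of the multi-synthetase complex, MARS1, RARS1 and QARS1 rose and IARS1 and LARS1 fell, with a median of 0.31. Without DMSO replicates 1 and 2 these 3 groups gave 1 higher and 3 lower, 3 lower, and 1 higher and 3 lower. Of its 3 scaffold proteins, EEF1E1 fell by 0.75 ± 0.16 (SE; limma adjusted p = 0.00043), from 1152 ± 120 to 689 ± 122 (SD, n = 3), and AIMP2 was at −0.57 ± 0.17 (0.0065). AIMP2 was lost without DMSO replicate 3 (−0.41, 0.052). AIMP1 was at 0.15 and was not called. EEF1E1 was also lower with the combination (−0.65, 0.0042), though not without DMSO replicates 1 and 2 (−0.55, 0.15).

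ATF4 itself was at 4730, 4898 and 8265 in DMSO and 6296, 6171 and 7940 with dCBP-1 (0.23, not called, limma adjusted p = 0.27). With the combination it was at 0.53 (0.017), and at 0.01 (0.99) without DMSO replicates 1 and 2. Of 33 other ATF4 target genes tested, of 36 listed, 11 rose and 15 fell with dCBP-1, with a median of −0.27, beside the 37.8% of all genes called, and 7 rose and 12 fell without DMSO replicates 1 and 2. SLC7A5 and SLC1A4, which import amino acids, fell by 2.18 and 1.33 on the log2 scale, and the transcription factor gene CEBPB fell by 1.21. CTH, an enzyme of cysteine synthesis, rose by 2.31. Of 9 regulators of the integrated stress response, 3 fell (EIF2AK3 −0.71, EIF2S1 −0.67, PPP1R15A −0.63) and 6 did not pass the test. The median of the 9 was −0.06, and PPP1R15B was at 0.28 without a call. Without these DMSO libraries 4 fell. MYC was at 1221, 1709 and 1413 in DMSO and 7.45, 5.65 and 1.19 with dCBP-1, and its fitted log2 fold changes were −0.83 (limma adjusted p = 0.21) with A-485, −1.75 (0.00053) with GNE-781, −2.53 (4.2e-06) with the combination and −8.17 (4.2e-18) with dCBP-1. The last depends on the pseudocount, since the dCBP-1 values are near 0. The fall of the 3 members with CACGTG and that of MYC are given side by side, and a link was not tested. FARSA and FARSB fell as well, without CACGTG in their windows.

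Other steps of translation were mixed as well. The lists below are read against the same 37.8% of all genes called, or 24.0% without DMSO replicates 1 and 2. The shares called were 41.7% for elongation and termination factors, 22.7% for mitochondrial translation, 37.5% for tRNA editing and related steps and 42.9% for RNA polymerase III. Of 12 cytosolic elongation and termination factors tested, of 13 listed, 2 rose and 3 fell with dCBP-1 (median −0.17): EIF5A −2.29, GSPT1 −1.0 and ABCE1 −0.89, against 1.56 for EIF5A2. Of 22 mitochondrial translation and tRNA modification factors, 2 rose (MTFMT 0.82, which formylates the methionyl tRNA that MARS2 charges, and MTIF3 0.65) and 3 fell, among them TRMT10C at −0.75 and GFM1 at −0.37 (median 0.04). Of 8 tested genes of tRNA editing, deacylation and related steps, of 9 listed, 3 fell: PTRH2, a peptidyl tRNA hydrolase, at −1.06, XPOT, which exports tRNA from the nucleus, at −0.83, and TARS3 at −0.69 (median −0.35). SEPSECS was at 0.49 and was not called. Of 21 genes of RNA polymerase III, which transcribes tRNA genes, 3 rose and 6 fell (median −0.08), with POLR3E at −0.93, POLR3D at −0.84, POLR3K at −0.78 and POLR3GL at 0.90. Without DMSO replicates 1 and 2 these 4 lists gave 1 higher and 4 lower, 1 higher and 2 lower, 2 lower, and 2 higher and 4 lower, in that order.

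**Figure D5:**
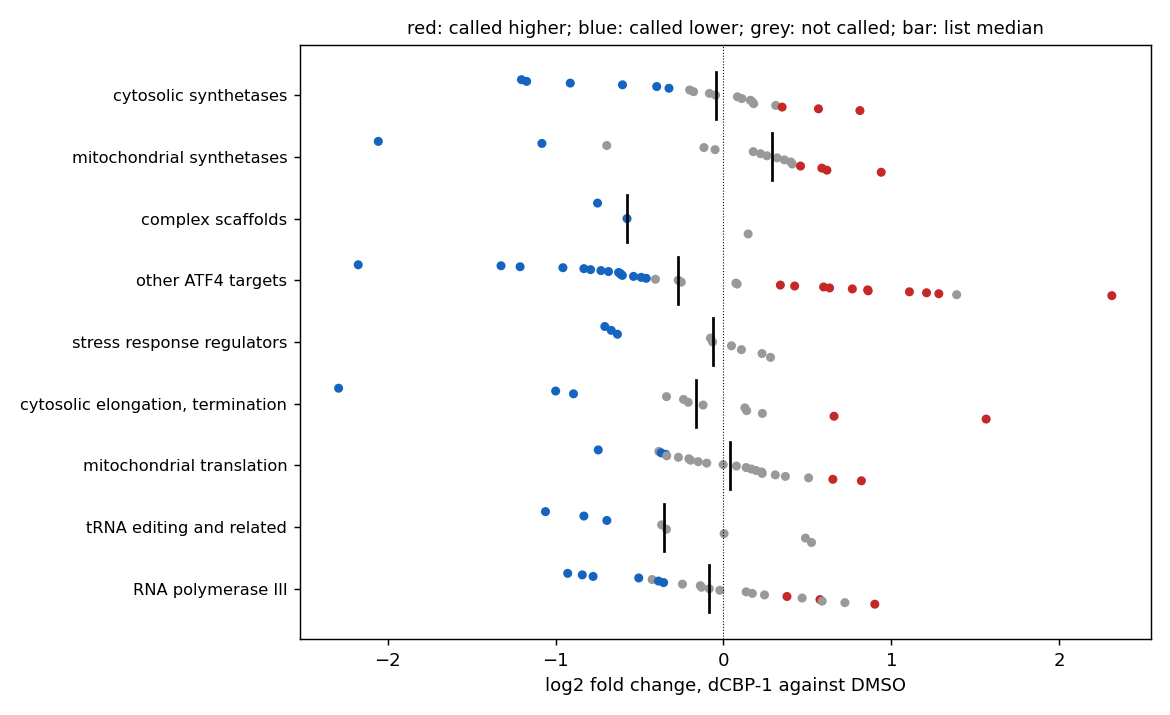
Log2 fold change with dCBP-1 against DMSO for each gene of 9 lists; points are genes (red called higher, blue called lower, grey not called) and black bars are list medians. Cytosolic synthetases (median −0.05) and mitochondrial synthetases (0.29) hold genes on both sides of 0, as do most of the other lists.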

How the data were processed

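RNA from 15 MM.1S libraries (5 groups of 3, grouped by title) was read by QuantSeq 3′ sequencing, per the labels' protocols. Per gene and library the authors deposited a signal, called normalized read counts. The submitters' processing notes name hg19, and aligner, counter, annotation and strand setting are not given in the sources used here. Every value was a whole multiple of 1 step per library (100% within 0.01 of a whole read), so reads were recovered. The treatment field of 2 combination libraries names compound numbers that differ from GNE-781 in titles and protocol, and the titles were used. Symbols matched 45779 of 47459 identifiers (96.5%).

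Log2(value + 1) was tested with limma-trend (limma 3.58.1, R 4.3.3) in 1 model of 5 group means, two-sided, for genes reaching 5 in at least 3 libraries, with Benjamini-Hochberg adjustment over 16104 genes. Alternatives were 3 other scalings, pseudocounts and filters, a replicate block, only the groups compared, edgeR 4.0.16 and DESeq2 1.42.0 on recovered reads, and libraries left out. Per-library values are given for members called with dCBP-1 at a log2 change of at least 0.5, or with the 2 smallest p in other comparisons. From other lists up to 4 genes with the smallest p are named. Members, lists and tests were chosen with earlier results of these data known. Library sizes were 13.1 to 18.29 M reads. Promoters and gene ends come from RefSeq and GENCODE annotations on GRCh38, not the build of the values.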

Additional observations from a re-analysis of the deposited data

How the results depend on the processing

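With 5 groups of 3 libraries, small changes in low genes such as PARS2 could not be resolved. The share of all genes called moved with the settings. For GNE-781 it was 21.8 to 23.4% with TMM, median-ratio, quantile, edgeR, DESeq2 and a filter at 20, against 16.6%. It was 5.29% for A-485 with DESeq2. For the combination it was 25.4 to 27.3% with TMM, median-ratio, quantile, edgeR, DESeq2 and a filter at 20, against 21.0%. With these settings it was 41.1 to 46.3% for dCBP-1 against DMSO, beside 37.8%, and highest with the filter at 20. With no filter it was 17.9% for dCBP-1 against DMSO, where 13 of 35 members were called. For dCBP-1 against the combination it was 8.42 to 10.9% with the scalings, the filter at 20, edgeR and DESeq2. Numbers of members called depended on the settings as follows. For A-485 the 2 became 5 with DESeq2, 0 without DMSO replicates 1 and 2 together, and 0 to 3 with 1 library left out. For GNE-781 the 5 became 10 with TMM, median-ratio scaling, edgeR and DESeq2, 11 with quantile normalization, 8 with a filter at 20, 2 without DMSO replicates 1 and 2, and 3 to 7 with 1 library left out. For the combination the 9 became 15 with quantile normalization, 3 without DMSO replicates 1 and 2, and 6 to 11 with 1 library left out. For dCBP-1 against DMSO the 15 ranged from 10 to 21 over all alternatives, 11 to 16 with 1 library left out. For dCBP-1 against the combination the 1 became 3 with TMM, 4 with DESeq2, 2 with median-ratio scaling, quantile normalization, a filter at 20 and edgeR, and 0 to 1 with 1 library left out. Against GNE-781 the 6 became 2 to 4 with 1 library left out, and for non-additivity the 0 became 0 to 1. The share of all genes called moved too. For dCBP-1 against DMSO it lay between 17.9% and 46.3% over all alternatives. With 1 library left out, dCBP-1 called between 31.2% and 40.5% against DMSO, and the combination between 12.9% and 26.8%. In such runs GNE-781 called between 9.24% and 23.1%, and A-485 between 0.433% and 7.11%. Set against GNE-781, dCBP-1 called between 6.46% and 7.24%. No change in member counts is thus read as particular to the members. RARS1 with the combination reversed to −0.056 without DMSO replicates 1 and 2 together, where the lone DMSO library is assumed to vary like the other groups. The cause was not tested. Of 30 pairs of libraries that share a replicate number, 0 had correlated deviations above 0.1. Of 15 libraries, 0 correlated best with their own number. No deviation shared by number was thus seen, and whether same-numbered libraries were handled together was not tested. With the replicate block 2, 6, 8 and 14 members were called against DMSO for A-485, GNE-781, the combination and dCBP-1, 1 and 4 for dCBP-1 against the combination and GNE-781, and 0 for non-additivity. The block ended the calls of RARS1 with the combination (limma adjusted p = 0.063), YARS1 with dCBP-1 (0.070), and FARSB (0.088) and LARS1 (0.069) for dCBP-1 against GNE-781. Scaling moved the median of all genes for non-additivity by −0.10 (TMM), −0.093 (quantile) and −0.083 (median-ratio), and by less in the other comparisons.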
